A study of Rattus norvegicus with 28 samples.

Results

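Injured rat spinal cord was compared between 2 weeks (T2) and 1 week (T1) after spinal cord injury (SCI), with 4 animals in each group, which are 8 of the 28 samples of the series. The samples were chosen by their labels (injured, 2 weeks, and injured, 1 week), and the question is how the injured tissue changed within the subacute stage. All animals were adult female Sprague Dawley rats that received a severe contusion of 250 kdyn at the eighth thoracic vertebra under morphine and isoflurane, with enrofloxacin and buprenorphine as aftercare. After perfusion with saline, 1.5 cm of cord that included the epicentre was taken without the dura mater. The labels list the immunosuppressant FK-506 (tacrolimus) in the general aftercare, from the day before transplantation of neural precursor cells (NPCs), and the methods describe this aftercare, tacrolimus included, as given to all animals. The T1 and T2 animals received no NPCs, and no start day of the drug is given for them separately. According to the methods, control injured animals were injected with medium without cells, and which groups this covers is not spelled out. The other samples were sham-operated animals (T0), injured animals at 4 weeks (T4) and 8 weeks (T8), and 2 groups with NPCs, also of 4 each.

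A contusion kills cells at the epicentre and opens vessels, and blood-borne neutrophils, monocytes and later macrophages enter the tissue and clear debris. Microglia, astrocyte and ependymal cell divisions follow, and fibroblast-like cells lay down collagen in the lesion core while reactive astrocytes form its border. Schwann cells, the myelin-forming cells of peripheral nerve, also appear in injured cord and wrap axons with myelin that contains the protein Pmp22. Each sample is a piece of whole tissue, so fewer cells of a type and less RNA per cell cannot be told apart.

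RNA was measured on single-dye oligonucleotide arrays, and levels are given as log2 values of the authors' quantile-normalized table, in which a difference of 1 is a doubling. Between 79.0% and 81.9% of spots were well above background in the T1 samples and between 75.1% and 81.3% in the T2 samples, and this share did not differ beyond the spread (difference -1.02 percentage points, exact permutation test, two-sided, p = 0.714, the smallest possible being 0.0286). The deposited forms of the data disagree on sample identity. For 5 of the 8 samples (T1 replicates 2, 3 and 4, and T2 replicates 1 and 4), the spots of the value-table column rank as in the scanner output of an array that was deposited for a different group. Those 5 arrays were scanned on 1 day (session 2), and the 3 undisputed ones (T1 replicate 1, T2 replicates 2 and 3) on another day (session 1). The results take each sample's identity from the value table, where it is written in the column header. Correlations between T1 samples lay between 0.985 and 0.992 when scanner outputs were given the sample of the matching column, and between 0.941 and 0.977 under their deposited sample. Between T2 samples these ranges overlapped, at 0.98 to 0.989 and 0.951 to 0.987. Pairs of a T1 and a T2 sample lay between 0.974 and 0.987 by matching column and between 0.941 and 0.992 as deposited.

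Of 35469 features tested with limma, 525 (1.48%) were DEGs at a Benjamini-Hochberg adjusted p under 0.05, of which 289 were higher (0.815%) and 236 lower (0.665%) at T2. The 4 T2 values lay entirely above or below the 4 T1 values for 2743 features (7.73%), 483 of them DEGs. A change of at least 2-fold was seen in 193 DEGs, 99 higher and 94 lower, and the median over all features was 0.003. Within-session values below rest on 1 T1 and 2 T2 samples in session 1 and on 3 T1 and 2 T2 samples in session 2. With scanner outputs under their deposited samples, limma called 0 features (395 at an unadjusted p under 0.05, against 4932 for the value table), so every call below depends on the sample names of the value table. The 3 undisputed samples, fitted with the 9 undisputed samples of other groups, gave 220 DEGs, 45 higher and 175 lower, of which 48 were among the 525. The count also moved by over 1.5 times without T1 replicate 1 (283), T1 replicate 2 (251), T1 replicate 3 (803), T1 replicate 4 (278), T2 replicate 1 (182) or T2 replicate 3 (248). Scaling to the 75th percentile moved the median of all features from 0.003 to 0.127 and the share of higher calls from 55.0% to 68.4%.

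**Figure D1:**
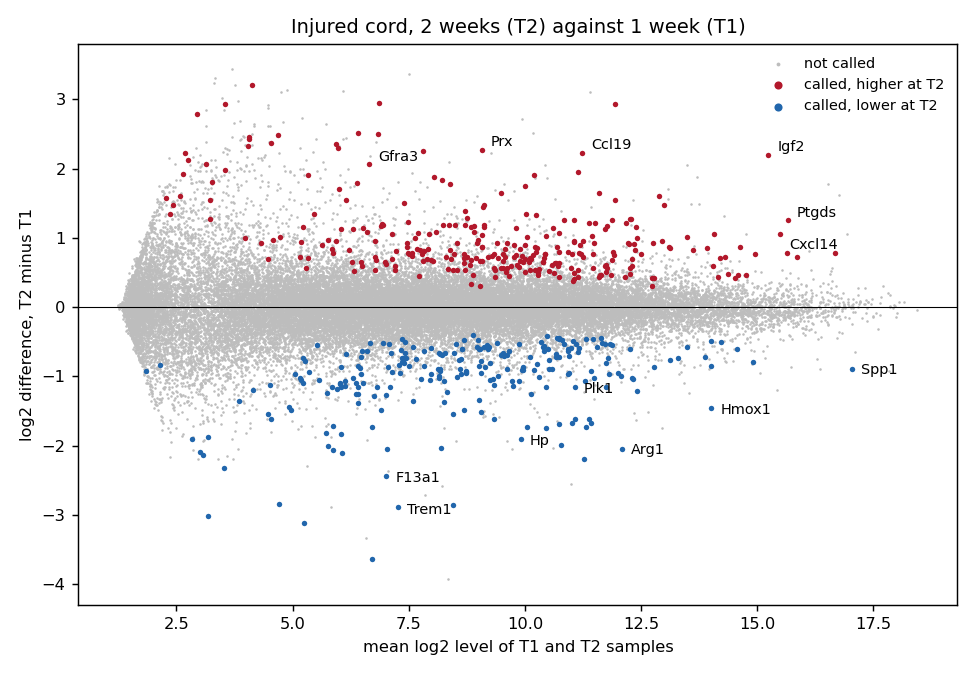
Each dot is 1 of 35469 features, placed by its mean log2 level over the 8 samples and its log2 difference between T2 and T1; red and blue dots are the 289 DEGs higher and the 236 lower at T2. The largest differences among the labelled genes were those of Trem1 (-2.89), F13a1 (-2.44) and Prx (2.27).

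Many genes of dividing cells fell between the first and the second week. Of 41 measured genes of a proliferation list, 16 fell and none rose against 0.665% of all features lower, and all 41 differences were below 0 with a median of -0.91. The T2 values lay entirely below the T1 values for 30 of the 41, against 7.73% of all features in either direction. The list median was -0.88 in session 1 and -0.83 in session 2, where Pcna, the clamp of the replication fork, was the 1 gene not below 0. Under the deposited scanner samples it was 0.08 and none of the list was called, and leaving out 1 sample at a time gave 8 to 21 calls with medians between -1.02 and -0.80. The count was 8 without T1 replicate 2, T1 replicate 4, T2 replicate 1 or T2 replicate 3, 10 without T1 replicate 1, 9 with the 8 T1 and T2 samples alone, and 0 with the undisputed samples alone, where the median was -0.88.

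Plk1, a kinase that drives entry into mitosis, had log2 levels of 11.62, 11.74, 11.29 and 11.96 in the T1 samples and 10.32, 10.53 and 10.41 in T2 replicates 1, 2 and 3, with T2 replicate 4 the highest of its group. All T2 values were below all T1 values, and the difference was -1.16 (SE 0.21, limma adjusted p = 0.00383), a 2.24-fold fall. Ccnb1, the cyclin B subunit that activates Cdk1 at mitosis, was at 11.21, 11.15, 10.63 and 11.16 at T1 and at 9.67, 10.00, 10.01 and 9.89 at T2. It fell 2.21-fold (-1.15, SE 0.21, limma adjusted p = 0.00456). Its relative Ccnb2 fell by 1.00 (SE 0.23) and Ccna2, the cyclin of S phase and early mitosis, by 1.22 (SE 0.31, limma adjusted p = 0.0495).

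Other falls in the list covered successive steps of the cycle. Among the genes of nucleotide supply and DNA synthesis, Rrm2, a subunit of ribonucleotide reductase, fell by 1.02 (SE 0.21) and Tyms, thymidylate synthase, by 0.99 (SE 0.16). Mcm4, part of the replicative helicase, fell by 0.64, and E2f1, a transcription factor of the G1/S transition, by 0.57. Among the mitotic genes, the spindle kinesins Kif11 and Kif23 fell by 1.44 and 0.78, the checkpoint kinases Bub1 and Bub1b by 0.90 and 0.94, and Aurka, a spindle pole kinase, by 0.87. Espl1, the separase that splits sister chromatids, fell by 0.91, and Birc5, a survivin subunit of the passenger complex, by 0.90. The feature RGD1566252, annotated as Mki67, the proliferation antigen Ki-67, was at 10.61, 10.87, 10.58 and 11.12 at T1 and at 9.66, 9.63, 9.65 and 10.19 at T2 (-1.01, SE 0.26, limma adjusted p = 0.0495). Its groups did not overlap, whereas those of Birc5, Bub1b and Mcm4 did.

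Levels at T2 were still above sham. The mean log2 level of the list ranged from 9.20 to 9.77 in the T1 samples and from 8.41 to 8.82 in the T2 samples, beside 6.53 to 7.01 in sham cord, 7.82 to 8.30 after 4 weeks and 7.55 to 7.96 after 8 weeks. The ranges of T1 and T2 did not overlap with each other or with T0. The mean of Ccnb1 was 7.13 ± 0.2 (SD, n = 4) in sham cord, 11.04 ± 0.27 for T1, 9.89 ± 0.16 for T2, 8.82 ± 0.21 for T4 and 8.45 ± 0.22 for T8. Sox11, a transcription factor of immature neural cells and of a separate progenitor list (1 of 23 genes called, against 1.48% of all features, median -0.05), fell by 1.02 (SE 0.25, limma adjusted p = 0.038). It was not called with slide as a fixed block (limma adjusted p = 0.0512), with 75th percentile scaling (0.0796) or in 6 of the 8 fits without 1 sample, those without T1 replicate 3 or T2 replicate 2 being the exceptions.

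The promoters of 3 of the mitotic genes that fell are shown because genes of this class share short motifs near the start site: the CCAAT box, which binds NF-Y, and the cell cycle homology element, which is spelled TTTGAA in some genes and carries a different middle base, as TTCGAA, in others. The windows run 5′ to 3′ from 250 bases before to 50 after the start in the RefSeq build GRCr8, with each match to the CCAAT box or to either spelling of the homology element, on either strand, in capitals. The Ccnb1 window is chr2:33655176-33655475 (minus strand), that of Ccnb2 chr8:79981609-79981908 (minus strand) and that of Plk1 chr1:186147408-186147707 (plus strand).
Ccnb1: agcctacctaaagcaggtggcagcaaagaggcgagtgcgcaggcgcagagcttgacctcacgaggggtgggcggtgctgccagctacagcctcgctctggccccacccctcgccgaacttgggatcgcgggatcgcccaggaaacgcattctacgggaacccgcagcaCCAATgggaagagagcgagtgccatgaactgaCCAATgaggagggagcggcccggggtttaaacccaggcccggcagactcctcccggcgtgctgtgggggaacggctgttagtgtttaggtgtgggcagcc
Ccnb2: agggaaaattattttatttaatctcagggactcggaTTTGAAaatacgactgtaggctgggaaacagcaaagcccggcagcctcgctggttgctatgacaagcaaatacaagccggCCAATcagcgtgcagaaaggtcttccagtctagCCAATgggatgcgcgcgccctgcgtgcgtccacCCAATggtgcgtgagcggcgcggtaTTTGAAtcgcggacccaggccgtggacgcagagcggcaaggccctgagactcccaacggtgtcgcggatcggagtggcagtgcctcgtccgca
Plk1: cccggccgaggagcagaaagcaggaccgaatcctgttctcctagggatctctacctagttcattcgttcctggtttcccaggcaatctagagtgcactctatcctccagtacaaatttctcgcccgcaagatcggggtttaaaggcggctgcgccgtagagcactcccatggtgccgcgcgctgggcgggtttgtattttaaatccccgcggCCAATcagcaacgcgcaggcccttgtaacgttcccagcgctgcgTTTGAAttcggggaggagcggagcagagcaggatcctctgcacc
CCAAT was present in 25 of the 32 proliferation genes with a window (78.1%) and in 37.7% of 27457 promoters of the table, taking 1 per gene symbol. The homology element in either spelling was present in 17 of the 32 (53.1%) and in 19.5% of all. Among the 12 genes of the list that fell and have a window, 8 held CCAAT (66.7%) and 7 held the homology element (58.3%). These are letter matches in the reference sequence, and binding was not measured.

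A group of Schwann cell and peripheral myelin genes rose. Of 25 measured genes of this list, 7 rose and none fell, against 0.815% of all features higher. In all, 20 members were above 0 and 5 below (median 0.64). Members lower within both sessions included Gdnf (-0.26 in session 1 and -0.9 in session 2) and Shh (-0.51 and -0.08). The T2 values lay entirely above the T1 values for 12, against 7.73% of all features in either direction. The list median was 0.60 in session 1 and 0.57 in session 2. Under the deposited scanner samples the median was 0.13 with no call, and leaving out 1 sample gave 4 to 8 calls, with 4 without T1 replicate 1 or T2 replicate 1. The undisputed samples alone gave 2 calls, as did the 8 T1 and T2 samples alone.

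Prx, the periaxin scaffold of myelinating Schwann cells, was at 6.85, 9.34, 8.03 and 7.54 in the T1 samples and at 10.39, 9.57, 10.51 and 10.34 in the T2 samples. The T1 samples spread more widely than the T2 samples, and the highest of them, replicate 2, was just below the lowest T2 sample. Its difference was 2.27 (SE 0.47, limma adjusted p = 0.0125).

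Pou3f1, a transcription factor of Schwann cells about to myelinate, was at 8.19, 8.63, 8.36 and 8.31 at T1 and at 9.93, 9.52, 9.86 and 9.99 at T2 (1.45, SE 0.22, limma adjusted p = 0.00126). Scn7a, a sodium-sensing channel protein of glia including Schwann cells, rose by 1.75 (SE 0.36), Cldn19, a claudin of Schwann cell junctions, by 1.50 (SE 0.30), Mpzl2, an immunoglobulin-type adhesion molecule, by 1.16 (SE 0.16), and Pmp22 by 0.72 (SE 0.12). Pmp2, the fatty acid binding protein of peripheral myelin, was higher by 0.70 without passing the test (SE 0.20, limma adjusted p = 0.0777). Gfra3, the co-receptor of the neurotrophic factor artemin, was outside the list and rose from 5.15, 5.84, 5.62 and 5.86 to 7.66, 6.99, 8.19 and 7.87 (2.06, SE 0.31, limma adjusted p = 0.00109). Egfl8, a secreted protein with EGF-like repeats, rose by 1.61 (SE 0.29, limma adjusted p = 0.00456).

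The central myelin list had no DEG among 25 genes, against 1.48% of all features called. Of its members 18 were above 0 and 7 below (median 0.08). The T2 samples lay entirely above the T1 samples for 3 of them, against 7.73% of all features in either direction. Mbp, a myelin protein shared by both kinds of myelin, differed by -0.33 (SE 0.27, limma adjusted p = 0.649) and Mog, found in central myelin only, by 0.51 (SE 0.15, limma adjusted p = 0.089). The mean level of the Schwann list ranged from 9.31 to 9.78 at T1 and from 10.06 to 10.36 at T2, with 8.72 to 8.91 in sham cord, 10.34 to 10.44 after 4 weeks and 10.45 to 10.60 after 8 weeks.

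**Figure D2:**
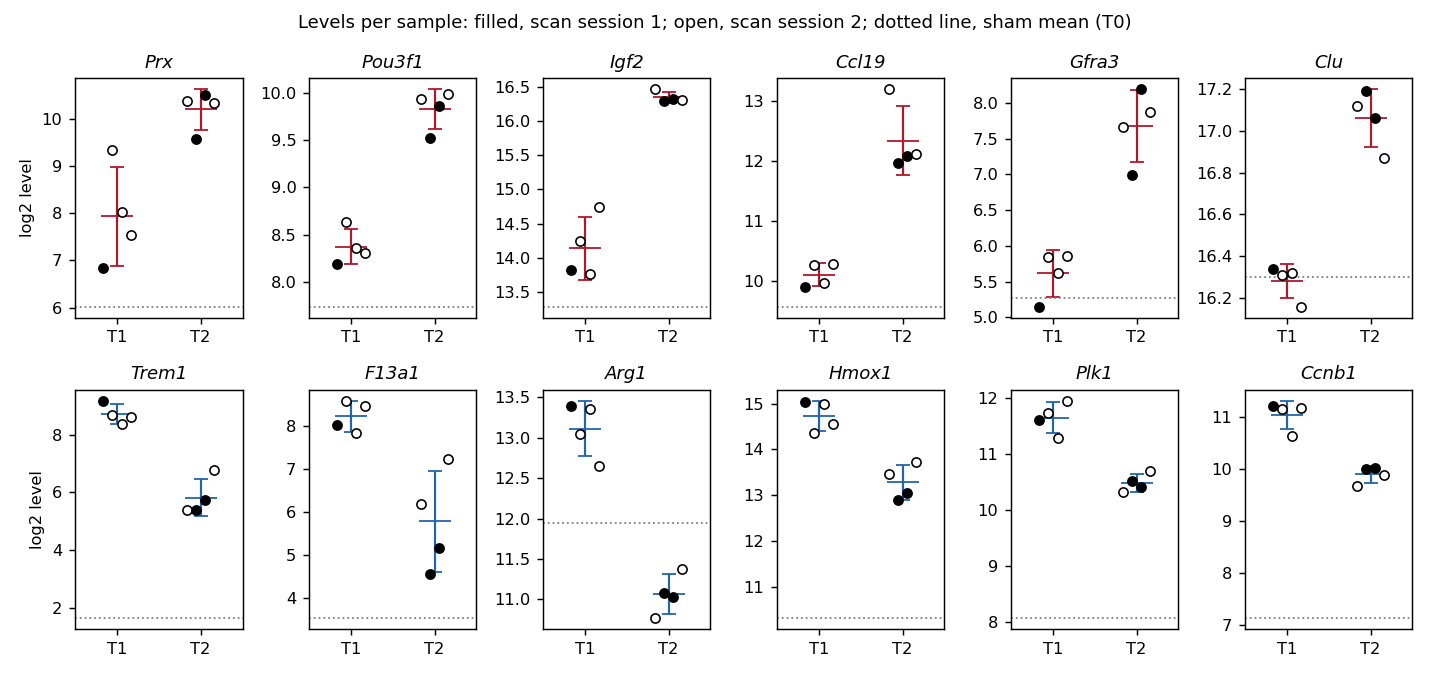
Log2 levels of 12 genes in the 4 T1 and 4 T2 samples; points are samples (filled, scan session 1; open, scan session 2), the horizontal mark and bar are mean and SD, and the dotted line is the mean of the 4 sham samples. The 12 genes were chosen from the DEGs, several of them by a rule that required T1 and T2 samples not to overlap, as holds in all 12 panels. The T1 samples of Prx spread more widely than its T2 samples.

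Several genes of inflammatory myeloid cells were among the largest falls. Trem1, a receptor of neutrophils and monocytes that amplifies inflammation, was at 9.18, 8.67, 8.37 and 8.61 at T1 and at 5.39, 5.38, 5.75 and 6.76 at T2. It fell 7.40-fold (-2.89, SE 0.34, limma adjusted p = 7.55e-05), the largest fall of a gene well above background on all 8 arrays. F13a1, the A subunit of clotting factor XIII, which macrophages also make, was at 8.04, 8.60, 7.84 and 8.47 at T1 and at 6.19, 4.56, 5.18 and 7.24 at T2 (-2.44, SE 0.50, limma adjusted p = 0.0112). Both genes were highest among T2 samples in replicate 4.

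Adam8, a metalloprotease of leukocytes, fell by 2.20 (SE 0.39) and Arg1, the arginase of wound macrophages, by 2.05 (SE 0.35). Arg1 was at 13.39, 13.05, 13.36 and 12.65 at T1 and at 10.77, 11.08, 11.03 and 11.37 at T2, below its sham mean of 11.94 ± 0.05 (SD, n = 4). Il20rb, a receptor subunit for interleukins of the IL-20 group, fell by 2.05 (SE 0.31) and Il1rn, the natural antagonist of the IL-1 receptor, by 0.90 (SE 0.19). C5ar1, the receptor for the complement fragment C5a, fell by 1.21 (SE 0.21). Spp1, the osteopontin of activated macrophages, fell by 0.89 (SE 0.20) from a mean of 17.48 and stayed at 16.59.

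As a group, the neutrophil and inflammatory monocyte genes did not move one way: 4 of 29 fell (Trem1, Adam8, Arg1 and Vcan), 2 rose and the median was -0.13, against 1.48% of all features called. Over the 16 members well above background on all 8 arrays the median was -0.42. Of the 29, 9 had T2 samples entirely below and 2 entirely above the T1 samples, against 7.73% of all features in either direction. The median ran from -0.46 (without T1 replicate 3) to -0.05 (without T1 replicate 2 or T2 replicate 3), and was -0.43 in session 1 and -0.11 in session 2. The 2 that rose were Padi4, an enzyme of neutrophil extracellular traps (0.69, SE 0.16), and Np4, a defensin (0.57, SE 0.11). S100a9, an abundant neutrophil protein, was at 7.88, 7.70, 7.08 and 7.21 at T1 and at 6.66, 6.45, 7.11 and 9.13 at T2 (-0.13, SE 0.50), and Csf3r, the G-CSF receptor, differed by -0.85 (SE 0.42, limma adjusted p = 0.367). The mean level of the list ranged from 5.61 to 6.50 at T2, with its top in replicate 4, and from 6.17 to 6.58 at T1. In the macrophage and foam cell list, Hmox1 was the only DEG among 30 genes (median -0.22), against 1.48% of all features called. The scavenger receptor Msr1 (-1.46, SE 0.50) and the phagosomal metal transporter Slc11a1 (-0.92, SE 0.26) did not pass the test. Against the same share, none of 15 homeostatic microglia genes was called (median -0.15), among them P2ry12 (-0.11, SE 0.31) and Cx3cr1 (-0.33, SE 0.40). The pan-macrophage gene Aif1 differed by -0.15 (SE 0.20).

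Of 23 genes of red blood cells, haemoglobin and iron handling, 3 fell and none rose, against 0.665% of all features lower. The list did not fall as a whole, with 14 members above 0 and 9 below (median 0.07). Hmox1, which breaks down heme, was at 15.04, 14.37, 14.99 and 14.56 at T1 and at 13.46, 12.90, 13.04 and 13.72 at T2, a 2.74-fold fall (-1.46, SE 0.27, limma adjusted p = 0.0053). Hp, the haptoglobin that binds free haemoglobin, fell 3.75-fold (-1.91, SE 0.27, limma adjusted p = 0.000793) from 11.26, 10.66, 11.15 and 10.39 to 8.90, 8.87, 8.40 and 9.67. Tfrc, the transferrin receptor, fell by 1.13 (SE 0.18), and its T2 mean of 8.76 was below the sham mean of 9.88. Hbb, a globin gene that marks blood, differed by -0.85 (SE 0.41, limma adjusted p = 0.356). In the glycolysis and hypoxia list, Ldha, lactate dehydrogenase, fell by 1.04 (SE 0.18) and Adm, the vasodilator adrenomedullin, by 0.87 (SE 0.18), and Slc16a1, a lactate transporter, rose by 0.61 (SE 0.12). The other 30 of 33 genes were not called (median -0.18), and 1.48% of all features were. The other lactate transporter, Slc16a3, was lower by 1.63 without passing the test (SE 0.53, limma adjusted p = 0.135), its differences being -2.58 in session 1 and -0.98 in session 2.

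Matrix genes went in both directions. Of 45 genes for collagens and scar matrix, 5 fell and 2 rose, against 1.48% of all features called, with a median of -0.25. Postn, the periostin of fibrotic tissue, was at 10.57, 11.47, 10.62 and 10.99 at T1 and at 9.76, 8.61, 8.45 and 9.92 at T2 (-1.73, SE 0.42, limma adjusted p = 0.038). Col8a1, a short-chain collagen, fell by 1.68 (SE 0.39), Fbln2, a fibulin of provisional matrix, by 1.69 (SE 0.39), Cthrc1, a secreted protein of activated fibroblasts, by 1.61 (SE 0.38), and Vcan, the proteoglycan versican, by 0.72 (SE 0.13). Efemp1, another fibulin, rose by 1.64 (SE 0.42) and Ogn, the small proteoglycan osteoglycin, by 0.95 (SE 0.24). Both calls were lost with slide as a fixed block (limma adjusted p = 0.0858 for Efemp1 and 0.0785 for Ogn) and with the replicate block (0.0733 and 0.0778). Col1a1, the main collagen of scar, differed by -0.27 (SE 0.40, limma adjusted p = 0.835). The list median was -0.26 in session 1 and -0.02 in session 2. Without 1 sample, 1 to 7 members fell and 0 to 2 rose: 2 fell without T1 replicate 1, and 1 without T1 replicate 2, T2 replicate 1, T2 replicate 2 or T2 replicate 3.

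Among the matrix proteases and their inhibitors 2 of 34 were called, both lower (median -0.10), against 0.665% of all features lower, and Adam8 was 1 of them. Ctgf (Ccn2), a matricellular protein induced by TGF-beta, was at 12.60, 12.48, 12.94 and 10.75 at T1 and at 10.56, 9.85, 10.69 and 10.73 at T2 (-1.73, SE 0.38, limma adjusted p = 0.0204), T1 replicate 4 being just above the highest T2 sample. Srpx2, a secreted sushi-repeat protein, fell by 2.03 (SE 0.32). Mmp7, a matrix metalloprotease, had the largest difference of the list without being called (3.11, SE 1.14, limma adjusted p = 0.195): 3 T1 samples were at 8.48, 8.90 and 8.47 and replicate 2 was at 13.56, within the T2 range of 12.14 to 13.70.

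Single growth factor and meningeal genes rose. Igf2, the fetal insulin-like growth factor that meninges keep expressing, was at 13.82, 14.25, 13.76 and 14.75 at T1 and at 16.46, 16.29, 16.32 and 16.30 at T2, a 4.58-fold rise (2.20, SE 0.36, limma adjusted p = 0.00229). The T2 values spanned less than the T1 values, and the T8 mean was 16.22. Igfbp2, a binding protein of IGFs, rose by 1.27 (SE 0.26), and Ptgds, the prostaglandin D synthase of leptomeninges, by 1.25 (SE 0.21) to a mean of 16.29 beside a sham mean of 16.35. These were the only calls among 30 genes of fibroblasts, pericytes and meninges (median 0.16), against 1.48% of all features called. Against the same share, Igf2 and Igfbp2 were also the only calls among 19 genes of the IGF system (median -0.37). H19, the non-coding RNA next to Igf2, was lower by 1.64 without passing the test (SE 0.49, limma adjusted p = 0.0986), at 11.49, 12.40, 11.92 and 10.25 in T1 and at 8.94, 10.18, 9.98 and 10.40 in T2. Gjb2, a gap junction connexin of meninges and astrocytes, was higher by 1.49 in non-overlapping samples and just missed the threshold (SE 0.38, limma adjusted p = 0.0505). Among Wnt, BMP and TGF-beta ligands and inhibitors, Wnt5a (0.96, SE 0.22) and Id3, a target of BMP signalling (0.59, SE 0.13), rose out of 43 genes (median 0.11), against 0.815% of all features higher.

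Several immune mediators also changed. Ccl19, a chemokine that attracts CCR7-bearing lymphocytes and dendritic cells, was at 9.91, 10.27, 9.98 and 10.29 at T1 and at 13.20, 11.97, 12.09 and 12.12 at T2 (2.23, SE 0.38, limma adjusted p = 0.00243). Cxcl14, a constitutive chemokine of epithelia and brain, rose by 1.05 (SE 0.17). With Cxcl6, which was well above background on 2 of the 8 arrays so that no fold is given, these were the 3 higher of 41 cytokines and chemokines. Il1rn and Spp1 were the 2 lower (median 0.04), against 1.48% of all features called. In the complement list of 23 (median 0.07), Clu, the chaperone clusterin, rose from 16.34, 16.31, 16.32 and 16.16 to 17.12, 17.19, 17.06 and 16.87 (0.78, SE 0.13, limma adjusted p = 0.00213). Cfb, a factor of the alternative pathway, rose by 0.90 (SE 0.21) and Serping1, the C1 inhibitor, by 0.82 (SE 0.15), while C1qc, a chain of C1q, fell by 0.72 (SE 0.16) with C5ar1. In all, 3 of the 23 complement genes rose and 2 fell, against 1.48% of all features called.

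In the interferon response list 1 of 24 genes rose, against 0.815% of all features, and the T1 samples were variable. The list median was 0.64, against 0.003 over all features, and the called gene was Oas1a, an antiviral enzyme: 11.56, 13.09, 11.73 and 12.62 at T1 against 14.44, 13.57, 13.56 and 13.36 at T2 (1.48, SE 0.36, limma adjusted p = 0.0365). T1 replicates 2 and 4 were higher than T1 replicates 1 and 3 for Oas1a, and likewise for Irf7, the transcription factor of type I interferon induction (1.71, SE 0.45, limma adjusted p = 0.0531), G1p2 (Isg15), a ubiquitin-like modifier (1.56, SE 0.44), and Rsad2, an antiviral protein (1.14, SE 0.52). The call of Oas1a was lost with slide as a fixed block (limma adjusted p = 0.0528) and with the replicate block (limma adjusted p = 0.0608). The mean level of the list ranged from 8.78 to 10.30 at T1 and from 9.79 to 10.68 at T2, and leaving out 1 sample gave 0 to 3 calls, with 3 without T1 replicate 2, 2 without T2 replicate 4, 1 without T2 replicate 2 and 0 otherwise. Ubd, a ubiquitin-like protein induced by interferon and TNF, rose by 1.88 (SE 0.33), and Klra2, of the killer cell lectin-like receptor family, by 1.79 (SE 0.33). Of 31 genes of T cells and natural killer cells, Gzmc was the only DEG, against 1.48% of all features called. Its array signal was well above background in 4 of 8 samples. In this list 22 members were above 0 and 9 below (median 0.09). Cd3g, a T cell receptor subunit, differed by 0.48 (SE 0.60) and Cd8a by -0.32 (SE 0.54). Sdc1, a proteoglycan of plasma cells and epithelia, fell by 0.85 (SE 0.17). It was the 1 call among 15 B cell and plasma cell genes (median -0.03), against 1.48% of all features called. Against the same share, none of 20 antigen presentation genes was called (median 0.10).

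**Figure D3:**
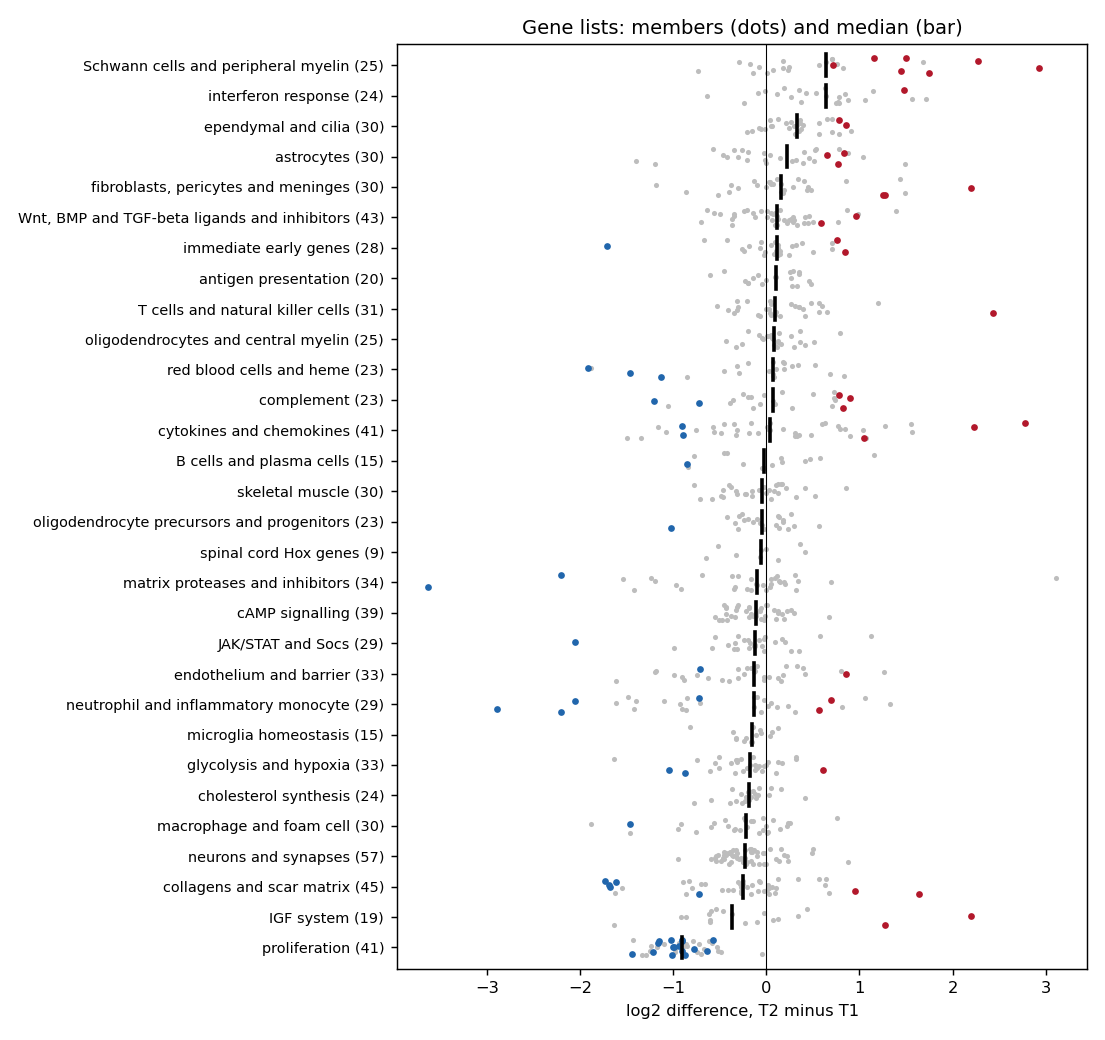
Log2 difference between T2 and T1 for every measured member of 30 gene lists (number of members in brackets), ordered by the list median (black bar); red dots are DEGs higher and blue dots DEGs lower at T2. The proliferation list lies wholly below 0 (median -0.91), and the Schwann cell and interferon lists have the highest medians (0.64 each).

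Glial genes rose in part. Among 30 astrocyte genes 3 rose and none fell, against 0.815% of all features higher. The median was 0.22, with 17 members above and 13 below 0, and the count was 1 without T1 replicate 2, 2 without T1 replicate 4, T2 replicate 1 or T2 replicate 3, and 0 with the undisputed samples or the 8 T1 and T2 samples alone. Aldh1l1, a folate enzyme that marks astrocytes, was at 11.85, 11.82, 11.84 and 12.27 at T1 and at 12.87, 12.74, 12.56 and 12.94 at T2 (0.83, SE 0.16, limma adjusted p = 0.0066). Agt, the angiotensinogen made by astrocytes, rose by 0.77 (SE 0.15) and Sox9, a glial transcription factor, by 0.65 (SE 0.15) with overlapping samples. Gfap, the filament protein of reactive astrocytes, differed by 0.40 (SE 0.29, limma adjusted p = 0.592) and the water channel Aqp4 by 0.78 (SE 0.25, limma adjusted p = 0.12). Lower without passing the test were 4 genes of reactive astrocytes: Lcn2, the iron-chelating lipocalin (-1.40, SE 0.50), Serpina3n, a protease inhibitor (-1.20, SE 0.86), Nes, the filament nestin (-0.42, SE 0.13), and Timp1, a metalloprotease inhibitor (-0.35, SE 0.17). The T2 samples of Lcn2, Serpina3n and Nes lay entirely below the T1 samples. In the whole list 5 members lay entirely above and 3 entirely below, against 7.73% of all features in either direction. Other members were higher within both sessions, among them Cxcl10 (1.61 in session 1 and 1.02 in session 2), Cp (0.52 and 0.74), Cryab (0.51 and 0.52) and Hspb1 (0.38 and 0.39). Of 30 genes of ependymal cells and cilia 2 rose, against 0.815% of all features: Foxj1, the master regulator of motile cilia (0.85, SE 0.16), and Dnah1, a dynein of the axoneme (0.78, SE 0.18), and 25 of the 30 were above 0 (median 0.33). Foxj1 was at 12.73, 12.56, 12.83 and 12.63 at T1 and at 13.93, 13.41, 13.42 and 13.40 at T2. Tekt2, another ciliary gene, was higher by 0.91 (SE 0.25, limma adjusted p = 0.0679). The list median was 0.39 in session 1 and 0.26 in session 2, where 28 and 27 members were above 0. Without 1 sample, 1 to 6 members were called: 6 without T2 replicate 4, 5 without T1 replicate 3, 2 without T2 replicate 2 and 1 without each of the others. With 75th percentile scaling 4 were called.

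**Figure D4:**
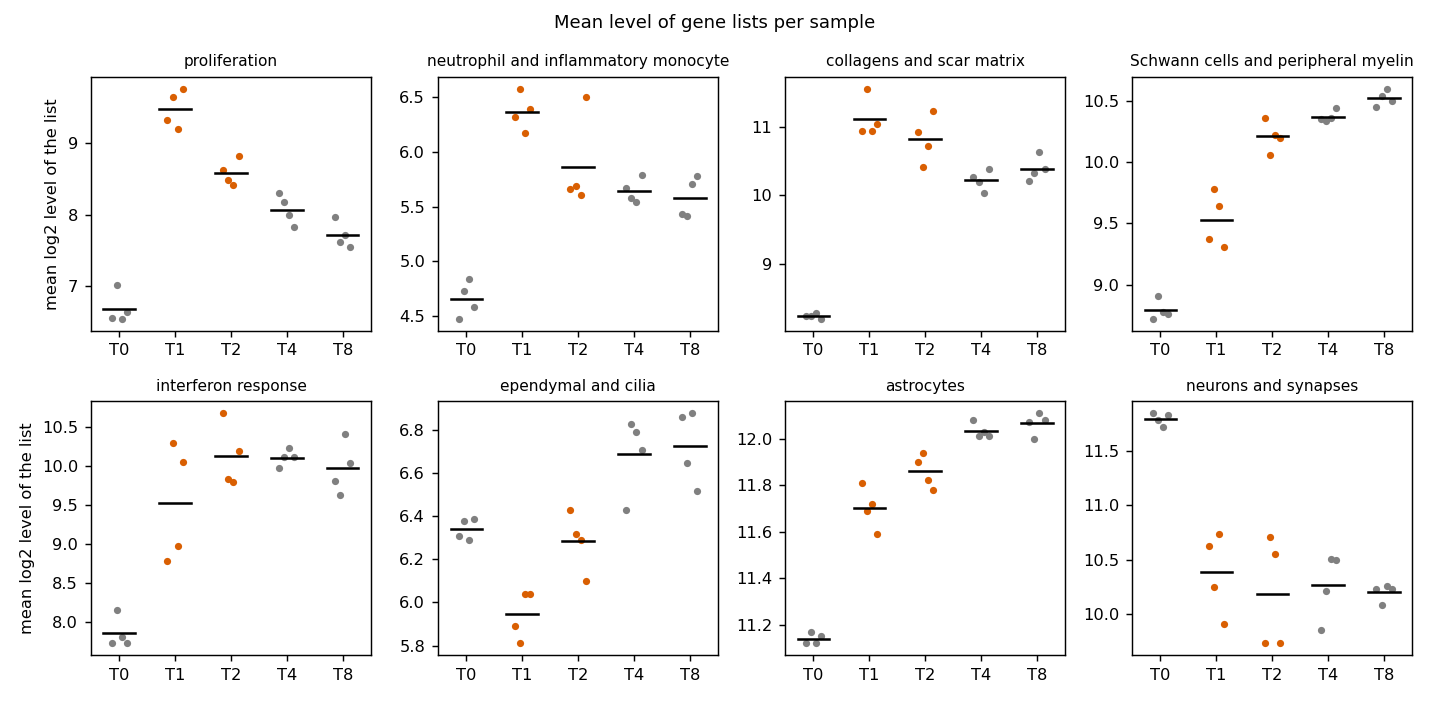
Mean log2 level of 8 gene lists in each of the 4 samples of T0, T1, T2, T4 and T8 (dots, with the groups compared here in orange) and the group mean (line). The T1 and T2 samples are separate for the proliferation, Schwann cell and ependymal lists and overlap for the interferon, astrocyte, collagen and neuron lists.

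Neuronal genes showed no DEG among 57 (median -0.23), against 1.48% of all features called. Their levels split the T2 samples, but not the T1 samples, by scan session. The mean level of the list was 10.71 and 10.55 in T2 replicates 2 and 3 (session 1) and 9.73 in both T2 replicates 1 and 4 (session 2). At T1 it was 10.63 in session 1 and 10.25, 10.74 and 9.91 in session 2. The session 2 samples are those of disputed identity, so session and identity cannot be told apart. Snap25, a synaptic fusion protein, was at 13.19, 12.47, 13.35 and 12.06 at T1 and at 11.67, 13.45, 13.08 and 11.56 at T2 (-0.33, SE 0.40, limma adjusted p = 0.793). The list median was -0.03 in session 1 and -0.61 in session 2. Stmn2, a growth cone protein, differed by -0.23 (SE 0.33), Nefl, a neurofilament, by 0.00 (SE 0.27) and Slc18a3, the acetylcholine transporter of motor neurons, by 0.16 (SE 0.28). Sncg, a synuclein of sensory and motor neurons, was higher by 0.88 without passing the test (SE 0.28, limma adjusted p = 0.121). The immediate early genes, which neurons and other cells switch on within minutes, held 3 DEGs of 28 (median 0.11), against 1.48% of all features called. Nr4a1 (0.76, SE 0.18) and Nr4a3 (0.84, SE 0.19), both orphan nuclear receptors, rose, and Dusp2, a phosphatase of MAP kinases, fell by 1.71 (SE 0.22, limma adjusted p = 0.000296). None of the list rose without T1 replicate 2, T1 replicate 4, T2 replicate 1 or T2 replicate 3, and 1 rose without T1 replicate 1.

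Among 39 cAMP signalling genes, the pathway the study turned to, limma called none, against 1.48% of all features called. The list median was -0.11, with 28 below 0. The feature annotated as Rapgef4 (EPAC2), a cAMP-activated exchange factor for Rap, was at 6.15, 5.84, 6.64 and 5.68 at T1 and at 5.56, 6.33, 5.86 and 5.21 at T2 (-0.34, SE 0.27, limma adjusted p = 0.641), beside a sham mean of 8.12 on ENSRNOT00000010630, its name on the array. Prkaca, a catalytic subunit of protein kinase A, differed by -0.19 (SE 0.24), Creb1, the cAMP response factor, by -0.07 (SE 0.12), Camkk2, a calcium-dependent kinase kinase, by -0.45 (SE 0.19), Bdnf by -0.06 (SE 0.32) and its receptor Ntrk2 by 0.17 (SE 0.12). Ppp1r1b, the protein phosphatase inhibitor DARPP-32, was higher in all 4 T2 samples without passing the test (0.67, SE 0.20, limma adjusted p = 0.102). The probes of Bdnf and of Ntrk2 differed in sign, the 2 such cases among 36 named genes with several probes.

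Of 33 endothelial and barrier genes, Vcam1, the adhesion molecule for leukocytes, rose by 0.86 (SE 0.22), Esam, an endothelial junction protein, fell by 0.71 (SE 0.16), and Cldn5, the claudin of the blood-brain barrier, differed by -0.16 (SE 0.16), with a list median of -0.13. In this list 1 gene was called higher and 1 lower, against 1.48% of all features called. The lymphatic and macrophage receptor Lyve1 was lower by 1.19 (SE 0.33, limma adjusted p = 0.0699). Il20rb was the only call among 29 genes of the JAK/STAT list (median -0.12), against 1.48% of all features called. Against the same share, no gene was called among 24 of cholesterol synthesis (median -0.19), 30 of skeletal muscle (median -0.05) or 9 spinal cord Hox genes (median -0.06). The mean level of the muscle list, tissue that could cling to a dissected cord, was 6.61 to 6.81 at T1 and 6.43 to 6.76 at T2.

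The 15 largest rises and falls among the 127 higher and 132 lower DEGs with a gene symbol, non-overlapping samples and signal well above background on each of the 8 arrays held further genes outside these lists. On the rising side were Abp1 (Aoc1), the diamine oxidase that degrades histamine (2.25, SE 0.48), Calml4, a calmodulin-like protein (1.91, SE 0.29), Cela3b, an elastase best known from pancreas (1.77, SE 0.42), and C1qtnf3, a secreted relative of C1q (1.54, SE 0.39). Calml4 was at 9.29, 8.95, 9.03 and 9.70 at T1 and at 11.08, 11.02, 11.54 and 10.97 at T2, with means of 11.99 at T4 and 12.74 at T8. On the falling side were Gip, an incretin hormone (-2, SE 0.33), Napsa, an aspartic protease (-1.99, SE 0.29), Plekhg4, a guanine nucleotide exchange factor (-1.82, SE 0.44), and Trh, the thyrotropin-releasing hormone (-1.75, SE 0.35). Napsa was at 12.39, 11.95, 11.61 and 11.13 at T1 and at 9.61, 9.43, 9.82 and 10.27 at T2. Of the 83 DEGs named with a difference in the text, 40 stayed DEGs in all 8 fits that left out 1 T1 or T2 sample, among them Igf2, Ccl19, Gfra3, Pou3f1, Clu, Foxj1, Trem1, Arg1, Hp, Hmox1, Plk1 and Ccnb1; Prx, F13a1, Postn and Oas1a did not in every one.

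**Figure D5:**
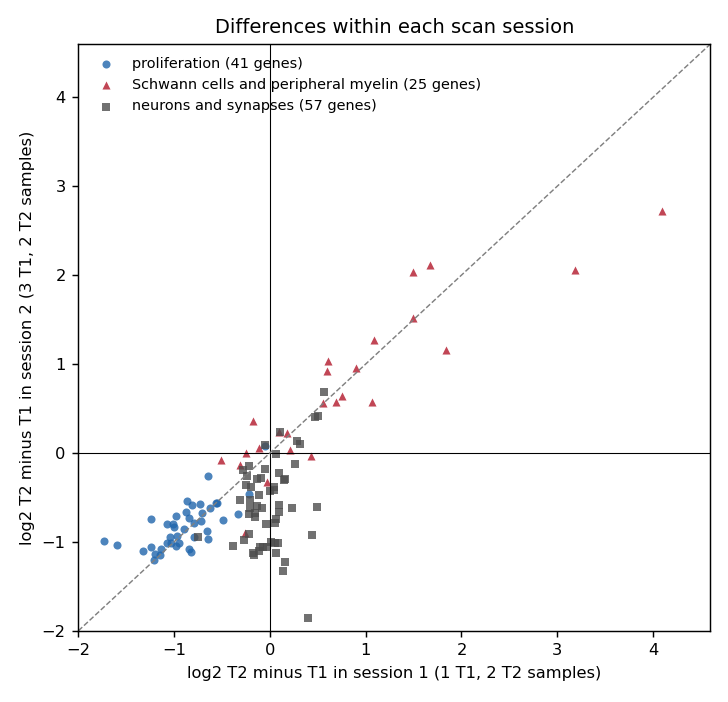
Log2 differences between T2 and T1 within scan session 1 (horizontal axis, 1 T1 and 2 T2 samples) and session 2 (vertical axis, 3 T1 and 2 T2 samples) for members of 3 lists, with equal differences on the dashed line. Proliferation genes (circles) lie below 0 on both axes except Pcna, Schwann genes (triangles) mostly above, and neuronal genes (squares) near 0 in session 1 (median -0.03) and below it in session 2 (median -0.61).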

How the data were processed

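RNA of single animals was hybridised to Agilent whole-genome rat arrays with 1 dye. The authors deposited Agilent Feature Extraction 10.7.1.1 scanner outputs (processed intensity per spot) and a table of log2 values, quantile-normalized per the methods. The processing notes name the genome build rn4. All columns of the table belong to samples of the series, and columns were matched to scanner outputs by rank order. The 43379 non-control spots were averaged per probe (41012) and per gene name (35469 features). Differences were tested with limma 3.58.1 (R 4.3.3) on 7 group means over 28 samples, T2 minus T1, with Benjamini-Hochberg adjustment over all features and a threshold of 0.05. Labels name no shared litter or batch, so p-values measure the spread between these samples. SE is the moderated standard error. Precision is limited by how many arrays were run. The gene comparisons, lists and named genes were chosen with earlier results of these data known. The text names the 15 largest rises and falls among called genes with a symbol, well above background on all 8 arrays and not overlapping, and members of the lists; a few genes so chosen are not reported here. Array names were updated through RefSeq accessions, 16815 of 20503 being found, and promoter windows came from RefSeq GRCr8. Same-numbered T1 and T2 samples had deviations correlated between -0.29 and 0.30, and 1 of 4 T1 samples correlated best with its own number. No pairing by number was seen, but so few samples, of partly disputed identity, cannot exclude it. Alternatives were the scanner outputs by rank order or as deposited, 75th percentile scaling, normexp on median signals, since some outputs lack mean signals, probe and sample choices, and slide, scan session or replicate number as a block. The fit was tested on simulated data.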

Additional observations from a re-analysis of the deposited data

Results flagged for a closer look

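Among the named genes, 22 of 250 groups of 4 samples held a sample whose gap to the nearest other sample took most of the group's range, where chance flags about 1 in 20 groups. In T1 these were Aif1 in replicate 1 (log2 level 16.62), Egfl8 (12.44) and Mmp7 (13.56) in replicate 2, Bub1 (10.80), Ccnb1 (10.63) and Cxcl14 (14.61) in replicate 3, and Aldh1l1 (12.27), Clu (16.16) and Gfap (14.46) in replicate 4. In T2 replicate 1 they were Ccl19 (13.20), Ccnb2 (8.82), Foxj1 (13.93), Hbb (9.69), P2ry12 (13.59) and Vcam1 (15.65), and in T2 replicate 2 Nr4a3 (8.18). In T2 replicate 4 they were Bub1 (10.28), Cd3g (8.24), Cthrc1 (11.01), Mcm4 (6.48), Padi4 (7.87) and RGD1566252 (10.19). T2 replicates 1 and 4, which hold 12 of the 22, are among the samples whose scanner outputs were deposited under another group.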

How the results depend on the processing

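Of the 525 DEGs at T2 against T1, 521 were called from scanner outputs placed by rank order (558 DEGs). Those outputs were picked because they rank as the value-table columns, so this agreement was built in. With the outputs under their deposited samples limma called 0 (395 at an unadjusted p under 0.05), and 433 of the 525 kept their direction. That fit shares the arrays of the 3 undisputed samples with the main fit. The undisputed samples gave 220 (20.5% higher, against 55.0%), the 8 T1 and T2 samples alone 115, and a 2-fold minimum 193. The 20 time-course samples gave 833, slide as a random block 790 and scan session as a fixed block 905. Leaving out 1 sample gave 182 to 803: 283 without T1 replicate 1, 251 without T1 replicate 2, 803 without T1 replicate 3, 278 without T1 replicate 4, 182 without T2 replicate 1 and 248 without T2 replicate 3. Without T2 replicate 2 the count was 631 and 69.6% of it was higher. The replicate block gave 397, and no pairing of samples by number was seen. The 75th percentile (711, 68.4% higher), normexp (734), probe, eBayes and fixed slide settings stayed within 1.5 times. Among named genes, 12 reversed, all under the deposited scanner samples: Birc5 (0.29), Bub1 (0.08), Bub1b (0.26), Ccna2 (0.33), Ccnb1 (0.16), Ccnb2 (0.22), Clu (-0.07), Espl1 (0.06), Igfbp2 (-0.02), Nr4a1 (-0.10), RGD1566252 (0.13) and Rrm2 (0.23). The cause was not tested. Features not well above background limit what dim genes can show.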
